A study of Mus musculus with 14 samples.

Results

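The genes of the receptors for immunoglobulin G were followed on 14 arrays of lymphatic endothelial cells from mouse lymph nodes. They were the high-affinity receptor Fcgr1, the inhibitory receptor Fcgr2b, the activating receptors Fcgr3 and Fcgr4, the signalling chain Fcer1g and the neonatal Fc receptor Fcgrt. The set was chosen by gene name, with the brightest probe of a gene where there were several, and holds 6 of the 34741 genes named on the array. Each of the 6 genes had 1 probe. The samples came from C57Bl/6 mice with no treatment or genetic change named in the labels. The groups were 2 medullary and 2 subcapsular samples of 1200 cells each, sorted by flow cytometry (FACS) from digested nodes, and 5 medullary and 5 subcapsular samples of 50 cells each, cut from frozen sections by laser-capture microdissection (LCM). The subcapsular sinus receives the afferent lymph and the medullary, or lymphatic, sinus lies on the efferent side. FACS used antibodies to podoplanin and CD73, a lineage cocktail that included CD11b and B220, and a dead-cell dye, and pooled nodes of more sites than LCM did. LCM took cells stained for CD31 in sections that were also stained for F4/80, a macrophage protein, and CD31 is carried by blood endothelium too. No label links a sample to an animal or gives age or sex, so the p-values measure the spread between these samples, some of which may share animals.

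Fc gamma receptors bind the constant part of immunoglobulin G. Fcgr1, Fcgr3 and Fcgr4 reach the cell surface and signal through the Fcer1g chain, whose tyrosine motif recruits the kinase Syk, whereas Fcgr2b carries an inhibitory motif of its own that recruits the phosphatase Inpp5d. Macrophages and other myeloid cells are the best known carriers of the activating receptors, and Fcgr2b is the Fc gamma receptor of B cells and is also found on some endothelia. Fcgrt pairs with beta-2 microglobulin (B2m), binds immunoglobulin G and albumin in acidic endosomes and returns them to the cell surface.

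The probes that stand behind every value below are printed 5′ to 3′ as the scanner files give them, whole for Fcgr3 and Fcgrt and as the first 30 bases of 60 for the others. They lie on the mouse build mm9.
Fcgr1: ccacatgtgcagggcatgcagacacagaca
Fcgr2b: acttctgtgagtcctgaaaccaacagacac
Fcgr3: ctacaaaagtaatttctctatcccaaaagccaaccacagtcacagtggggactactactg
Fcgr4: ccaagaagcgattcttcagaattttacact
Fcer1g: aggtccccatctccgttaaagacttactca
Fcgrt: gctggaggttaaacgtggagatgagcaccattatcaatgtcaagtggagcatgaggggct
The Fcgr1 probe (transcript NM_010186) covers chr3:96086839-96086898 on the minus strand, and the Fcgrt probe (NM_010189) covers chr7:52350556-52350615 on the minus strand. The other probes lie in the Fc receptor cluster of chromosome 1, with Fcgr2b (NM_001077189) at chr1:172890988-172891047 on the minus strand, Fcgr4 (NM_144559) at chr1:172959738-172959797 on the plus strand, Fcgr3 (NM_010188) at chr1:172984129-172984188 and Fcer1g (NM_010185) at chr1:173159794-173159853, both on the minus strand. An annotation of mm9 was not used here, so the exon each probe lies in is not given. Mouse Fcgr2b and Fcgr3 are known to share nearly identical antibody-binding domains, and whether the Fcgr3 probe also takes up Fcgr2b transcripts was not tested. The Fcgr2b probe was spotted 10 times on each array, and its spots differed by an SD of 0.0388 to 0.141 on the log2 scale within an array, which is the measurement error of that probe on 1 array.

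In RefSeq (GRCm38.p6) the cluster runs in the order Fcgr2b (chr1:170960558-170976071), Fcgr4 (chr1:171018926-171029761), Fcgr3 (chr1:171051169-171065915) and Fcer1g (chr1:171229572-171234349). The promoters of Fcgr1 and Fcgr3, the 250 bases before the RefSeq start site (for Fcgr3 the first of the start sites listed) on the minus strand of the same build, are shown because PU.1 (Spi1), a factor known to act on such genes, was measured on the same arrays. The start sites listed for Fcgr3 lie inside the gene span given above, and the bases before the upstream end of that span were not examined. Capitals mark GAGGAA on either strand, a known PU.1 motif. The shorter GGAA within it was not searched for on its own.
Fcgr1 promoter, chr3:96293970-96294219: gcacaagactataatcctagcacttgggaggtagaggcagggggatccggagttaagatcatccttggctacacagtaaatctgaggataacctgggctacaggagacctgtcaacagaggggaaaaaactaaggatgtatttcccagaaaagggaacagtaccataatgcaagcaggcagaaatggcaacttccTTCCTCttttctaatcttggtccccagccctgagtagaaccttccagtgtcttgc
Fcgr3 promoter, chr1:171059404-171059653: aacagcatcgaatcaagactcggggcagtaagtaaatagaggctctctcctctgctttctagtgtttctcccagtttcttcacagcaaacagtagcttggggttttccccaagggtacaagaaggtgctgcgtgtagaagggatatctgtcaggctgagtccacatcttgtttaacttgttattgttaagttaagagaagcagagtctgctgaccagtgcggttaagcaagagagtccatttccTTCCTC
Fcgr1, Fcgr3 and Fcgr4 each held 1 GAGGAA, all on the reverse strand, 50, 1 and 17 bases before the start site, and 23.3% of the 32851 promoters in the table held 1 or more. The promoters of Fcgr2b, Fcer1g and Fcgrt did not hold GAGGAA in this window.

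Each level is the log2 of the background-adjusted signal over the 75th percentile of its array, so that 0 is the level that 75% of the probes do not exceed. Levels of different probes are not compared. Fcgr1, Fcgr2b, Fcgr3, Fcer1g and Fcgrt were well above background on 14 of 14 arrays. Fcgr4 passed this limit on 2 of 2 arrays of each sinus in FACS, and in LCM on 4 of 5 medullary and 3 of 5 subcapsular arrays. Calls rest on limma p-values adjusted by Benjamini-Hochberg over all genes tested, with a threshold of 0.05. All 6 genes entered each comparison.

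Of all probes, 66.3% to 78.99% exceeded background on FACS arrays. In LCM 50.78% to 69.04% did on subcapsular and 67.37% to 75.32% on medullary arrays. The 75th percentile signal was 167 and 120 on subcapsular LCM replicates 1 and 2, against 267 to 395 on the other LCM arrays. Levels are relative to this signal, and Fcer1g was highest on these 2 arrays (6.63 and 6.75). The part of the scaling in those levels was not tested. Arrays of 1 group correlated across genes at 0.655 to 0.85. Of the lymphatic endothelial markers, Prox1 and Stab2 were above background on 14 and 13 arrays, whereas Lyve1 was below it on both medullary FACS arrays, as were Ackr4, Mmrn1 and Cdh5, and Flt4 on both subcapsular FACS arrays. Of the 8 tested in FACS, 4 were higher (Pdpn, Prox1, Reln and Stab2) and 4 lower in medullary samples, with 0 called. Pdpn, which encodes podoplanin, averaged −0.92 ± 0.87 in medullary, against −5.25 ± 0.5 in subcapsular FACS samples (SD, n = 2 each). Its difference was 4.33 ± 0.74 (SE, limma adjusted p = 0.0819). Pecam1, which encodes CD31, was above background on all arrays but averaged −3.6 ± 0.33 on the medullary FACS arrays, against 4.62 ± 0.92 on the subcapsular FACS arrays (SD, n = 2 each), and 4.82 ± 0.53 on the medullary, against 4.18 ± 2.12 on the subcapsular LCM arrays (SD, n = 5 each). Its sinus difference was called different between FACS and LCM (−8.86 ± 1.41, SE, limma adjusted p = 0.0123). The blood endothelial and high endothelial venule markers had a median of 4.78 in the LCM sinus comparison, with Fut7, Ackr1 and Chst4 called higher in medullary samples.

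None of the 6 Fc receptor genes was called in any of the 4 comparisons. Between the sinuses in FACS 0 of 6 were called, against 0 of 27645 genes tested (0%), and 4 of 6 had an unadjusted p under 0.05 against 31.9% of all genes. In LCM 0 of 6 were called, against 48 of 27359 genes (0.175%), and 1 of 6, Fcer1g, had an unadjusted p under 0.05 against 11.7% of all genes. The test of whether the sinus difference itself differed between FACS and LCM called 0 of 6 against 1.29% of 29660 genes, with Fcgr2b alone under an unadjusted p of 0.05 against 21.3% of all genes. FACS against LCM called 0 of 6 against 3.86% of 29660 genes, with Fcgr3 and Fcer1g under an unadjusted p of 0.05 against 16% of all genes. No test of these counts against the other genes was made. The same shares of all genes stand beside the counts of marker and pathway genes below. The sinus difference was positive for 59.5% of all genes tested in FACS and for 52.6% in LCM.

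**Figure D1:**
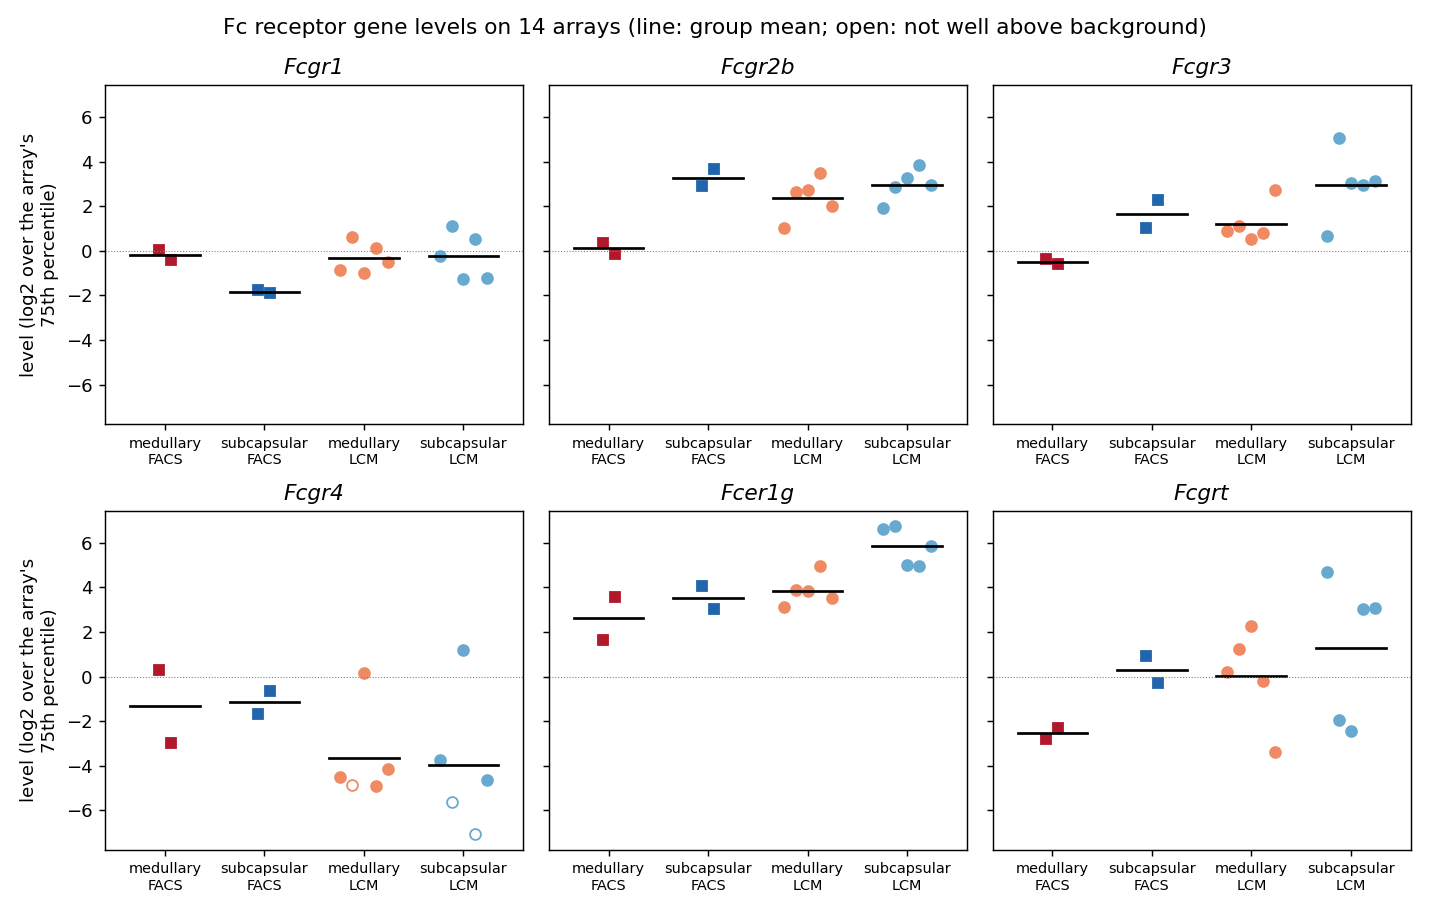
Level of each Fc receptor gene on each of the 14 arrays, as log2 over the array's 75th percentile, with medullary FACS, subcapsular FACS, medullary LCM and subcapsular LCM samples from left to right. Lines are group means and open symbols are probes not well above background, which occur only for Fcgr4. The LCM groups of Fcer1g do not overlap, and Fcgr2b is at 0.34 and −0.13 on the medullary FACS arrays, against 2.92 and 3.65 on the subcapsular ones.

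Fcer1g, the chain shared by the activating receptors, had the lowest p of the 6 genes in LCM. Its level was 1.64 and 3.59 on the medullary FACS arrays, against 4.05 and 3.04 on the subcapsular FACS arrays. On the LCM arrays it was 3.1, 3.88, 3.84, 4.95 and 3.53 in medullary samples, against 6.63, 6.75, 5.02, 4.95 and 5.86 in subcapsular samples. The LCM groups did not overlap, although the highest medullary and the lowest subcapsular array both round to 4.95, and the FACS groups did. Groups that do not overlap in LCM were found with the medullary one lower for 2.06% of the genes tested and with it higher for 1.03%. The medullary LCM mean was 3.86 ± 0.68 and the subcapsular LCM mean 5.84 ± 0.85 (SD, n = 5 each), a difference of −1.98 ± 0.57 (SE), or 3.96-fold lower in medullary samples. This difference exceeded the spread in an exact two-sided permutation test of this gene alone (p = 0.00794, the smallest that 5 against 5 arrays can give) and did not pass over all genes (limma adjusted p = 0.244, and 0.127 to 0.478 under the alternatives). The LCM difference depended on the scaling. It was −1.14 with quantile normalization, −1.19 with the deposited values and −1.25 with a percentile taken from probes detected on every array. Arrays of slide 1 alone gave −2.24 (limma adjusted p = 0.265), and a fit with the slide row as a block gave −1.83 (limma adjusted p = 0.478). On slide 1 all 3 medullary arrays and 1 subcapsular array lay in row 2 and the other 4 subcapsular arrays in row 1, so sinus and row are largely confounded there. In FACS the difference was −0.93 ± 0.95 (SE, limma adjusted p = 0.496).

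In LCM most macrophage markers, like Fcer1g, had lower means in medullary samples. Itgam, at 8.04 to 9.77 on the log2 scale, made up most of the summed level of the list. It was 8.94 and 8.99 on the medullary FACS arrays, against 8.04 and 8.07 on the subcapsular FACS arrays, the opposite order to that of the Fcer1g means. These levels are relative to the 75th percentile signal, which was 245 and 246 on the medullary, against 411 and 456 on the subcapsular FACS arrays. The part of this scaling in the Itgam order was not tested. Without Itgam the 13 other markers summed to 29.7 to 63.1 times the 75th percentile on the medullary LCM arrays, against 140 to 703 times on the subcapsular LCM arrays. In FACS the sum was 15.3 and 28.6 times in medullary samples, against 36.5 and 40.9 times in subcapsular samples. With Itgam the sums were 328 to 426 against 436 to 1580 in LCM, and 519 and 524 against 300 and 310 in FACS. Such sums weigh the brightest markers most. The mean log2 level of the 14 markers overlapped in LCM, at −0.4 to 0.76 in medullary samples, against 0.61 to 3.43 in subcapsular samples. In FACS this mean was −1.04 and −0.85 in medullary samples, against −0.8 and 0.9 in subcapsular samples. Of the 12 macrophage markers tested in LCM, 11 were lower and 1 higher in the medullary samples and 0 were called by limma (5 at an unadjusted p under 0.05), with a median difference of −1.19 against 0.08 for all genes. In FACS 9 of 13 were lower and 4 higher in the medullary samples, the higher ones being Itgam, Csf1r, Cd14 and Cd163, and 0 were called by limma (3 at an unadjusted p under 0.05), with a median difference of −0.29 against 0.74 for all genes. Siglec1, a sialic acid receptor of sinus macrophages, averaged 1.17 ± 1.65 in medullary and 5.71 ± 1.18 in subcapsular LCM samples (SD, n = 5 each), and the lysozyme gene Lyz2 3.7 ± 0.65 and 6.52 ± 0.77. Timd4, a phosphatidylserine receptor of tissue macrophages, averaged 1.37 ± 0.69 and 4.49 ± 0.8 in the same samples. Of the 14 markers only Vsig4 was below background on all 5 subcapsular LCM arrays. In bulk samples such as these, fewer cells of a type and less RNA per cell cannot be told apart, and the part of macrophage RNA in the Fcer1g difference was not tested.

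Fcgr3, the low-affinity activating receptor of macrophages, natural killer cells and neutrophils, had lower means in medullary samples under both isolations, without passing the test in either. It was −0.39 and −0.57 on the medullary FACS arrays, against 1.02 and 2.27 on the subcapsular FACS arrays. In LCM it was 0.89, 1.1, 0.55, 0.82 and 2.75 in medullary samples, against 0.66, 5.08, 3.02, 2.96 and 3.11 in subcapsular samples. The FACS groups did not overlap. In LCM 1 subcapsular array, replicate 1, lay among the low medullary ones, and 1 medullary array, replicate 5, lay near the subcapsular ones. The difference was −2.13 ± 0.71 in FACS (SE, limma adjusted p = 0.146) and −1.74 ± 0.79 in LCM (SE, limma adjusted p = 0.429). The LCM value lay between −2.32 without subcapsular replicate 1 and −1.21 without subcapsular replicate 2 when single arrays were left out. The FACS difference minus the LCM difference was −0.39, with a 95% confidence interval from −3.02 to 2.25.

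Fcgr1, the receptor that binds monomeric immunoglobulin G with high affinity, differed little between the sinuses in LCM and was the only one of the 6 genes with a higher value in medullary FACS samples. It was 0.02 and −0.4 on the medullary FACS arrays, against −1.76 and −1.91 on the subcapsular FACS arrays, which did not overlap. The LCM groups overlapped, with −0.85, 0.63, −1, 0.14 and −0.49 in medullary samples, against −0.24, 1.1, −1.26, 0.53 and −1.23 in subcapsular samples. The difference was 1.64 ± 0.57 in FACS (SE, limma adjusted p = 0.152) and −0.09 ± 0.62 in LCM (SE, limma adjusted p = 0.971, 95% confidence interval −1.46 to 1.28). The FACS minus LCM difference of the sinus effect was 1.73 with an interval of −0.28 to 3.75 (limma adjusted p = 0.294).

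Fcgr4, the activating receptor known to bind mouse IgG2 subclasses, varied more between replicates than between groups. It was 0.31 and −2.97 on the medullary FACS arrays, against −1.66 and −0.65 on the subcapsular FACS arrays. In LCM it was −4.51, −4.86, 0.17, −4.89 and −4.14 in medullary samples, against −3.75, −5.61, 1.19, −7.08 and −4.62 in subcapsular samples, and medullary replicate 2 and subcapsular replicates 2 and 4 were not well above background. Replicate 3 of both sinuses stood apart, several log2 units above the other arrays of its group. The sinus difference was −0.17 ± 1.34 in FACS (SE, limma adjusted p = 0.929) and 0.33 ± 1.52 in LCM (SE, limma adjusted p = 0.956). The 95% confidence interval ran from −3.9 to 3.56 in FACS and from −3.03 to 3.69 in LCM.

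Fcgr2b, the inhibitory receptor, had the lowest p of the 6 genes between the sinuses in FACS. It was 0.34 and −0.13 on the medullary FACS arrays, against 2.92 and 3.65 on the subcapsular FACS arrays. In LCM it was 1.04, 2.63, 2.73, 3.51 and 2 in medullary samples, against 1.92, 2.85, 3.28, 3.84 and 2.94 in subcapsular samples. The medullary FACS arrays lay below all other arrays, while the LCM groups overlapped. The FACS difference was −3.18 ± 0.63 (SE), or 9.07-fold lower in medullary samples, and it did not pass with the FACS arrays alone (limma adjusted p = 0.0927). It was called when all 14 arrays shared 1 estimate of the spread (−3.18, limma adjusted p = 0.0131, against 0.0131 to 0.366 over the alternatives). In LCM the difference was −0.59 ± 0.59 (SE, limma adjusted p = 0.75), and it turned to 0.18 after quantile normalization, 0.14 with a percentile taken from probes detected on every array and 0.19 with the deposited values. The FACS difference exceeded that in LCM by −2.59 ± 0.91 (SE, limma adjusted p = 0.147), with an interval of −4.57 to −0.62.

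B cell markers were also low on the medullary FACS arrays. All 7 had a lower value in medullary than in subcapsular FACS samples, 0 of them called by limma (3 at an unadjusted p under 0.05), with a median difference of −1.91 against 0.74 for all genes. In LCM 6 of 7 did, 0 of them called and 4 at an unadjusted p under 0.05, with a median of −1.35. Their summed level was 38 and 106 times the 75th percentile on the medullary FACS arrays, against 163 and 264 times on the subcapsular FACS arrays. In LCM the sum was 83.4 to 155 times in medullary samples, against 165 to 473 times in subcapsular samples. Blk, a kinase gene of B cells, had the lowest p of the list in FACS (−6.53 ± 0.69, SE, limma adjusted p = 0.0648). The B cell receptor component Cd79a averaged 3.76 ± 0.32 and 5.67 ± 0.5 (SD, n = 2 each) in medullary and subcapsular FACS samples, and Ms4a1, which encodes CD20, −1.69 ± 0.91 and 1.99 ± 0.43. The sort had stained B220, a B cell protein, in its lineage cocktail. The part of B cell RNA in the Fcgr2b difference was not tested. Both medullary FACS arrays lay in 1 row of the slide and both subcapsular ones in the other, so sinus and row cannot be told apart in FACS.

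Fcgrt, the neonatal Fc receptor, had a wide spread between LCM replicates and a narrower one in FACS. It was −2.8 and −2.29 on the medullary FACS arrays, against 0.92 and −0.3 on the subcapsular FACS arrays. In LCM it was 0.21, 1.22, 2.26, −0.19 and −3.38 in medullary samples, against 4.68, −1.94, −2.46, 3.05 and 3.06 in subcapsular samples. The FACS groups did not overlap and the LCM groups did, with a 142-fold range among the subcapsular LCM arrays and a 49.8-fold range among the medullary ones. The difference was −2.85 ± 0.72 in FACS (SE, limma adjusted p = 0.115) and −1.26 ± 1.55 in LCM (SE, limma adjusted p = 0.794). The LCM value was −0.4 without subcapsular replicate 1 or without medullary replicate 5 and −2.19 without subcapsular replicate 3, and −0.05 on slide 1 alone or with the slide as a block, with limma adjusted p from 0.596 to 0.995 over the alternatives. The difference between these was −1.6, with an interval of −6.58 to 3.38.

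Taking FACS as a whole, 4 of the 6 genes had sinus groups that did not overlap, Fcgr1 with the higher and Fcgr2b, Fcgr3 and Fcgrt with the lower values in medullary samples. With 2 arrays against 2 this held for 69.6% of all genes tested, with medullary samples higher for 42.9% and lower for 26.7%, the total being a share near that of the Fc receptor genes, and an exact permutation test of 2 against 2 cannot give a p below 0.333. In LCM 1 of 6, Fcer1g, did not overlap, against 3.09% of all genes. The sign of the difference was negative for 5 of 6 genes in FACS, where Fcgr4 turned to 0.15 with normexp background correction, and for 5 of 6 in LCM, where Fcgr2b turned as above and Fcgr1 turned to 0.64 with a percentile taken from probes detected on every array. The median over the 6 genes was −1.53 in FACS and −0.92 in LCM, against 0.74 and 0.08 over all genes tested.

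**Figure D2:**
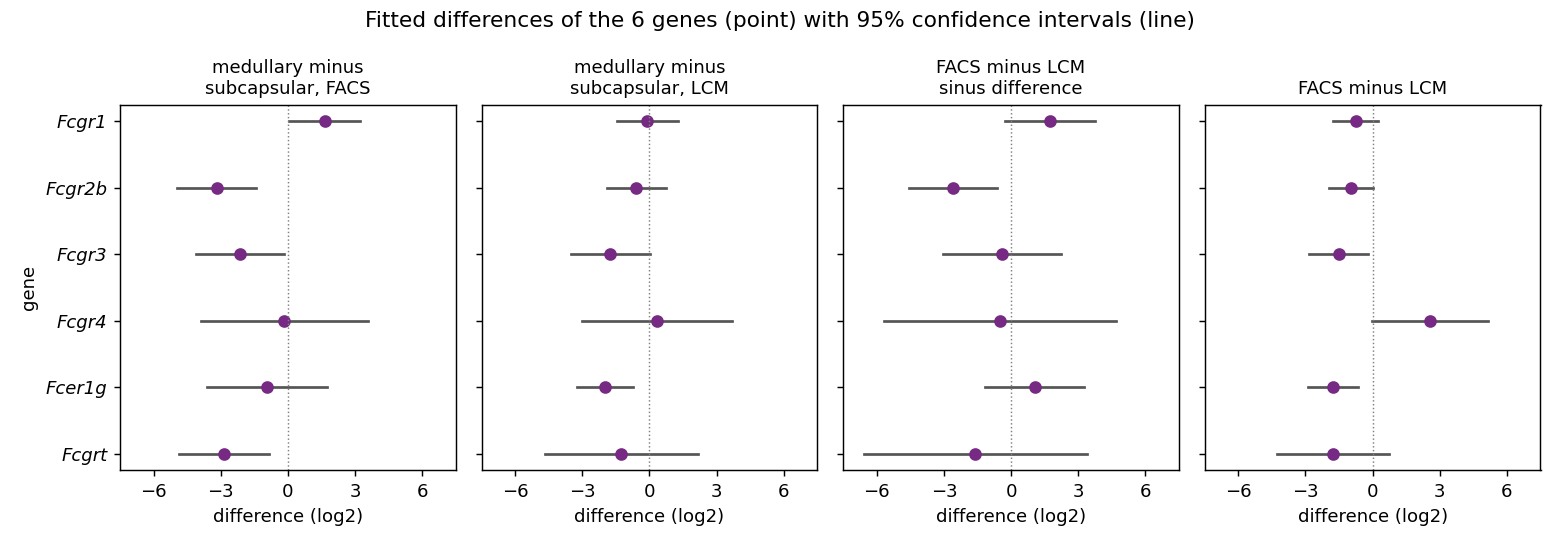
Fitted differences (points) and 95% confidence intervals (lines) of the 6 Fc receptor genes on the log2 scale, for the sinus comparison in FACS, the sinus comparison in LCM, the difference between these and FACS against LCM. The FACS sinus interval of Fcgr2b runs from −4.94 to −1.42 and the LCM sinus interval of Fcer1g from −3.25 to −0.72, and the FACS sinus interval of Fcgr4 from −3.9 to 3.56.

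Sorted and dissected cells were compared as a check of the isolation, averaged over the sinuses. Fcer1g averaged 3.08 in FACS and 4.85 in LCM samples, a difference of −1.77 ± 0.51 (SE, limma adjusted p = 0.0824), or 3.41-fold lower in FACS. It was called with normexp background correction (−1.72, limma adjusted p = 0.0376), with trend and robust variance estimation (−1.77, 0.0369) and without medullary FACS replicate 7 (−2.26, 0.0257), among adjusted p-values of 0.0257 to 0.47 over the alternatives. Within slide 2, the only slide with both isolations, the 2 medullary FACS arrays against the 2 medullary LCM arrays gave −1.63 (limma adjusted p = 0.47). Fcgr3 differed by −1.51 ± 0.61 (SE, limma adjusted p = 0.231) and Fcgr4 by 2.57 ± 1.2 (SE, limma adjusted p = 0.318). The differences of Fcgr1, Fcgr2b and Fcgrt were −0.74, −0.98 and −1.77, with limma adjusted p from 0.315 to 0.508. For all 6 genes the FACS and LCM arrays overlapped. Of 14 macrophage markers 3 were called lower in FACS, namely Timd4 (−5.27 ± 0.54, SE, limma adjusted p = 9.14e-05), Lyz2 (−3.33 ± 0.57, adjusted p = 0.00517) and the complement gene C1qa (−4.67 ± 1.17, adjusted p = 0.0434), and their part in the Fcer1g value was not tested.

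Ordered by group means, the subcapsular LCM samples were highest for Fcgr3, Fcer1g and Fcgrt, and the medullary FACS samples lowest for Fcgr2b, Fcgr3, Fcer1g and Fcgrt. The step in this order that separated neighbouring groups without overlap was the last one for Fcgr2b and Fcgr3, from medullary LCM to medullary FACS samples, and for Fcgr1, from medullary LCM to subcapsular FACS samples. All other neighbours in the order overlapped, for Fcgr4, Fcer1g and Fcgrt throughout.

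The 6 genes did not follow one another closely across arrays. Over the 14 arrays the correlation was highest for Fcgr2b with Fcgr3 (r = 0.61) and for Fcgr3 with Fcer1g (r = 0.57), and lowest for Fcgr1 with Fcgr4 (r = −0.61), as a description of points that share groups, slides and scaling. Over the 10 LCM arrays these values were 0.34, 0.47 and −0.68. With the mean log2 level of the macrophage markers, Fcgr3 gave r = 0.78 and Fcer1g r = 0.76 over 14 arrays, and 0.81 and 0.64 over the 10 LCM arrays. With that of the B cell markers Fcgr3 gave 0.76 and Fcer1g 0.61 over 14 arrays. With the macrophage markers, Fcgr1 gave 0.16, Fcgr4 −0.25 and Fcgrt 0.11 over 14. Fcgr2b gave 0.35 with the macrophage markers over 14 arrays and 0.02 over the 10 LCM arrays. With the B cell markers it gave 0.82 over 14 arrays, and no B cell value was taken over the LCM arrays alone.

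**Figure D3:**
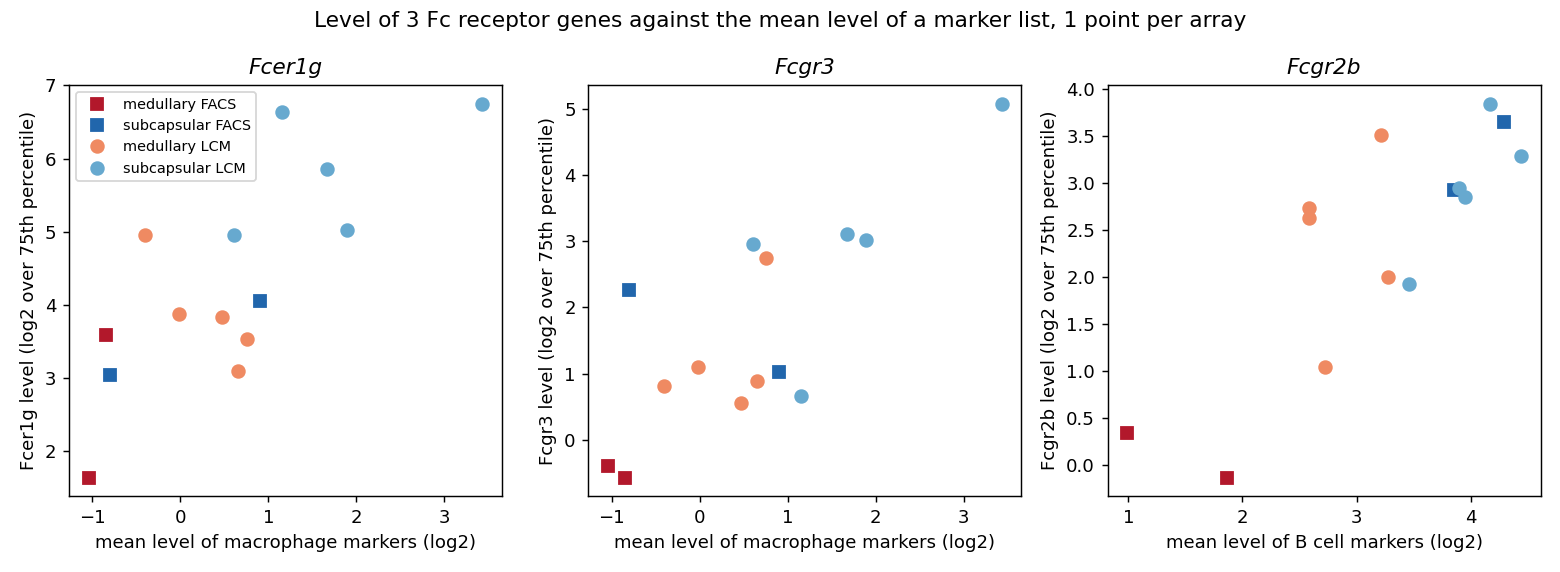
Level of Fcer1g and Fcgr3 against the mean log2 level of 14 macrophage markers, and of Fcgr2b against that of 7 B cell markers, with 1 point per array. The medullary FACS arrays have the lowest mean marker levels in each panel, with r of 0.76, 0.78 and 0.82 over the 14 arrays. The marker means of the other groups overlap in the macrophage panels. In the B cell panel the medullary LCM arrays (2.58 to 3.28) lie below the subcapsular LCM (3.46 to 4.44) and subcapsular FACS arrays (3.85 to 4.29).

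Among the 13264 other named genes that were above background on at least 10 arrays, the profiles most like that of Fcer1g over the 14 arrays were those of the glycolytic enzyme gene Aldoa (r = 0.92), the lysozyme gene Lyz1 (0.91) and Akap8 (0.9). For Fcgr3 they were Tmem123 (0.94), the transcription factor gene Tcf4 (0.92) and Tctn1 (0.92), and for Fcgr2b the purine phosphorylase gene Pnp (0.94), Larp1b (0.91) and the lymphocyte adaptor gene Lax1 (0.9). For Fcgr1 they were Gm7932 (0.89), Rdh1 (0.87) and Zfp820 (0.86), for Fcgr4 Sema5b (0.88), Ggt5 (0.84) and Ttc26 (0.84), and for Fcgrt Pex10 (0.91), the xanthine dehydrogenase gene Xdh (0.85) and Papolg (0.85). These are the highest of many correlations over 14 arrays that share groups, slides and scaling, and no test was made of them.

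Genes that carry the signal below the receptors were described as lists, by counts and medians. For these and the lists that follow, the share of all genes with an unadjusted p under 0.05 was 31.9% in FACS and 11.7% in LCM. No list was tested against these shares. Of 19 genes of activating signalling, 0 were called between the sinuses in FACS and 7 had an unadjusted p under 0.05, with 16 negative and a median of −2.43, led by Plcg2 (−3.91 ± 0.56, SE, limma adjusted p = 0.0711), a phospholipase, and the kinase gene Prkcd (−5.63 ± 0.83, adjusted p = 0.0728). In LCM 18 were tested and 1 was called, the adaptor gene Card9, which was higher in medullary samples (3.19 ± 0.49, SE, limma adjusted p = 0.0367), and the median was −0.38. Of the 6 with an unadjusted p under 0.05 in LCM, the other 5, Vav1, Plcg2, Btk, Tyrobp and Rac2, had lower means in medullary samples, with differences of −2.21 to −1.44. Prkcd alone of this list was called in the interaction (−4.41 ± 0.96, limma adjusted p = 0.0464) and in FACS minus LCM (−2.6 ± 0.48, limma adjusted p = 0.0085). Syk, the kinase recruited by Fcer1g, differed by −0.31 in FACS and 0.18 in LCM, with neither called. Tyrobp, a chain related in function to Fcer1g, differed by −5.97 ± 2.75 in FACS and −2.21 ± 0.82 in LCM (SE, limma adjusted p = 0.208 and 0.356).

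Of the 7 genes of inhibitory signalling, 0 were called by limma in any comparison, with an unadjusted p under 0.05 for 2 in FACS and 0 in LCM, and the lowest p was that of Rasa1 in FACS (−4.51 ± 0.96, SE, limma adjusted p = 0.0977), next to Inppl1 (−2.42 ± 0.65, adjusted p = 0.121). Rasa1 was not well above background on either medullary FACS array, so its level there is only a bound. In LCM the lowest p-values were those of Ptpn6 (−1.03 ± 0.54) and Rasa1 (−1.96 ± 1.02), with limma adjusted p = 0.488 each. Inpp5d, the phosphatase recruited by Fcgr2b, differed by −0.54 in FACS and 1.44 in LCM. Their medians were −0.78 in FACS, −1.03 in LCM and −0.36 in FACS minus LCM.

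B2m, the partner chain of Fcgrt, was lower in FACS than in LCM samples and was called there (−2.63 ± 0.36, SE, limma adjusted p = 0.000983). It was 1.37 and 1.41 on the medullary FACS arrays, against 5.26 and 5.67 on the subcapsular FACS arrays, a difference of −4.07 ± 0.57 that did not pass (SE, limma adjusted p = 0.0695). In LCM it averaged 5.54 ± 0.14 in medullary and 6.57 ± 0.67 in subcapsular samples (SD, n = 5 each), a difference of −1.04 ± 0.47 (limma adjusted p = 0.428). B2m is also part of the class I antigen presentation molecules that most cells carry. Of the 8 genes of this list, with 7 recycling endosome genes beside B2m, 0 were called by limma between the sinuses in FACS (median −3.34, 7 negative, 4 with an unadjusted p under 0.05) and 0 in LCM (median −0.02, 4 negative, 1 with an unadjusted p under 0.05). The Rab GTPase gene Rab11b was called in the interaction (−7.31 ± 1.59, SE, limma adjusted p = 0.0464). In FACS minus LCM 3 were called lower, B2m, Rab5a (−1.9 ± 0.43, adjusted p = 0.0253) and Rab11b (−3.11 ± 0.8, adjusted p = 0.049), and 1 higher, Rab4a (3.25 ± 0.74, adjusted p = 0.0278).

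Of 13 other immunoglobulin-binding receptors, 9 were tested in FACS and 11 in LCM with 0 called in either, and medians of −1 and −0.4. An unadjusted p under 0.05 was found for 4 of 9 and 3 of 11. Fcrl1, an Fc receptor-like gene of B cells, had the lowest p in FACS (limma adjusted p = 0.0648) and was not well above background on both medullary arrays, so its level there is only a bound. The low-affinity IgE receptor gene Fcer2a differed by −2.48 ± 0.64 in FACS (SE, limma adjusted p = 0.116), and Fcrla by −2.11 ± 0.47 and the IgM receptor gene Fcmr by −1.91 ± 0.62 in LCM (limma adjusted p = 0.149 and 0.302). Fcer2a was called lower in FACS than in LCM samples (−2.77 ± 0.46, SE, limma adjusted p = 0.00462). Of 8 immunoglobulin chain genes only Igkc was matched by name, and it differed by 0.86 ± 2.07 in LCM (SE, limma adjusted p = 0.902) and was not tested in FACS.

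The 5 transcription factors known to act on myeloid Fc receptor genes were not called by limma in any comparison, with an unadjusted p under 0.05 for 1 of 5 in FACS and 2 of 5 in LCM, and medians of −1.42 and 0.53. Spi1, which encodes PU.1, differed by −6.22 ± 1.12 in FACS (SE, limma adjusted p = 0.0862) and −5.84 ± 2.08 in LCM (SE, limma adjusted p = 0.334), and Cebpb by −4.27 ± 1.14 in LCM (SE, limma adjusted p = 0.212).

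**Figure D4:**
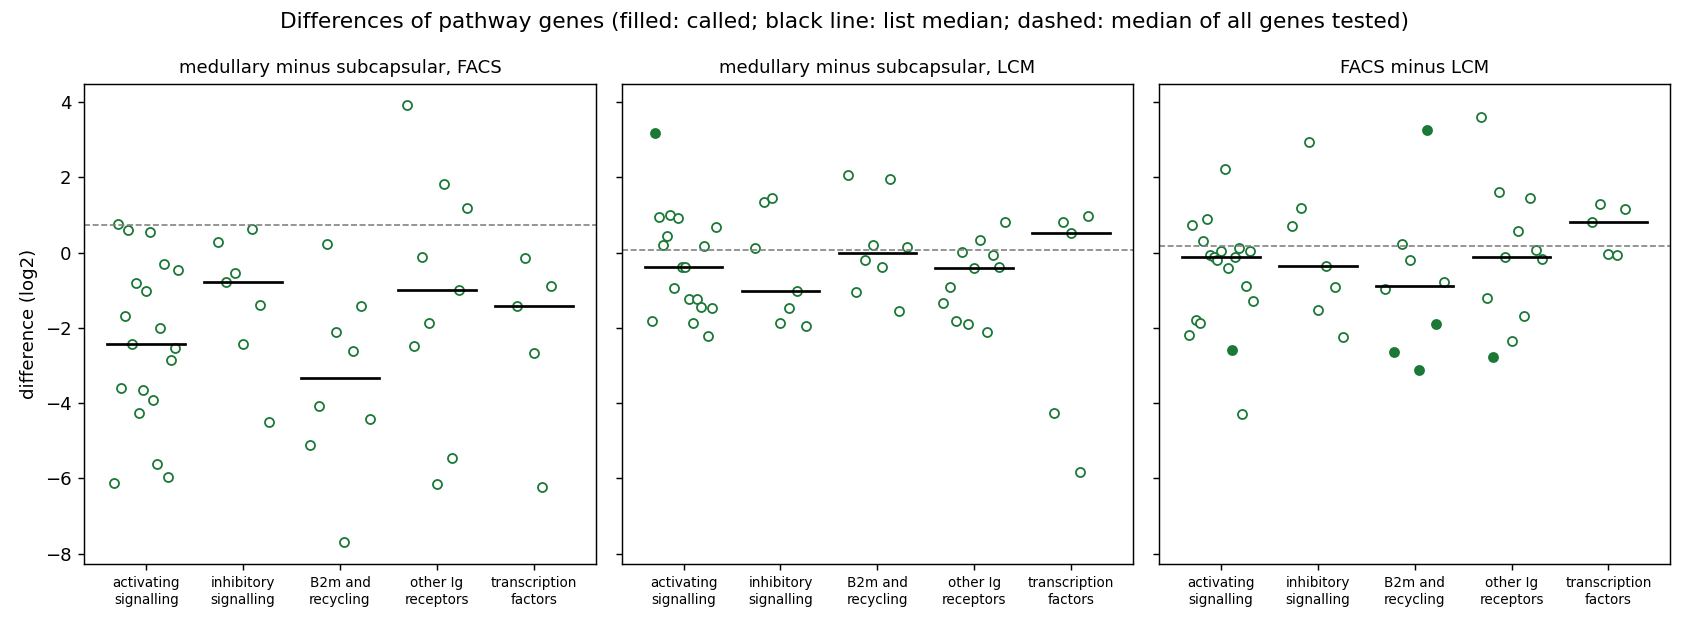
Differences of single genes (points) in the activating and inhibitory signalling, B2m and recycling, other immunoglobulin (Ig) receptor and transcription factor lists on the log2 scale, for the sinus comparison in FACS, the sinus comparison in LCM and FACS against LCM. Filled points passed the test, black lines are list medians and dashed lines the median of all genes tested, which is 0.74, 0.08 and 0.17 from left to right.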

How the data were processed

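The deposited scanner files hold 1-colour (Cy3) intensity values, background-adjusted by Agilent Feature Extraction 10.7.3.1 per the file headers, from RNA amplified by the SuperAmp method per the labels' protocols. The deposited value table holds log2 values with a median of 5.43 on every array, which correlated at 0.9786 to 0.9997 with the log2 scanner values; its normalization is not given in the sources used here, and it served as an alternative. Control spots were left out of 14 arrays, spots of 1 probe were averaged, and log2 intensity was expressed over each array's 75th percentile of all 55681 non-control probes. Each gene was represented by its brightest probe. A gene was tested if it was well above background on at least 3 arrays of a sinus in LCM or 2 in FACS. limma 3.58.1 in R 4.3.3 compared the sinuses within LCM and within FACS; the difference between these and FACS against LCM were fitted on all 14 arrays with array weights by isolation. P-values were adjusted over all genes (Benjamini-Hochberg) and called under 0.05, and the code was tested on simulated data.

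Alternatives covered background correction, scaling, filters, variance estimation, slide, row, replicate block and leaving out each array. Deviations of same-numbered samples correlated at −0.02 to 0.01 in LCM and 0.02 in FACS. Such values cannot show whether same-numbered samples share an animal, and the labels do not say. The main fits did not pair samples. Slide 1 held all subcapsular and 3 medullary LCM arrays, and slide 2 the others. The 6 genes and all gene lists were chosen with earlier results of these data known. Genes outside the 6 were chosen from each list as the called ones, at most 4 per comparison by lowest p, or the 2 with the lowest p where none was called, and for each of the 6 genes as the 3 most alike by Pearson correlation; not every gene this rule gives is named. Genes named outside it, after their values were seen, were Syk, Tyrobp, Vav1, Btk, Rac2, Csf1r, Cd14, Cd163, Vsig4, Itgam, Pdpn, Reln and the lymphatic markers given by detection, and in some comparisons Inpp5d, Fcer2a, Cd79a, Siglec1 and Lyz2. 1 gene of the transcription factor list is not reported here by name. The number of arrays limits the precision.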

Additional observations from a re-analysis of the deposited data

Results flagged for a closer look

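Fcgr3 on medullary LCM replicate 5 stood at 2.75 on the log2 scale over the 75th percentile, far from the nearest of the other medullary LCM arrays at 1.1. The gap was 0.752 of the range of the group, above Dixon's critical value of 0.71. Without this array the LCM sinus difference of Fcgr3 was −2.12. Fcgr4 on medullary LCM replicate 3 stood at 0.17, against −4.14 on the nearest array, a gap of 0.853 of the range. Without it the LCM sinus difference of Fcgr4 was −0.63. Of 12 groups of LCM arrays examined in this way 2 stood out, and chance gives about 1 in 20.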

How the results depend on the processing

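The count of Fc receptor genes called between the sinuses stayed at 0 in LCM under all 23 alternatives and in the interaction under all 25. In FACS it was 1 of 6 with all 14 arrays in one fit (Fcgr2b) and 0 under the other 13. In FACS against LCM it was 1, Fcer1g, with normexp background correction and with trend and robust variance estimation, and 0 to 1 when single arrays were left out. Directions turned for Fcgr4 with normexp (−0.45 in LCM, 0.15 in FACS and 0.6 in the interaction), for Fcgr2b in LCM with quantile normalization (0.18), a percentile taken from probes detected on every array (0.14) and the deposited table (0.19), for Fcgr1 in LCM with that percentile (0.64) and the row as a block (0.16), and for Fcgrt in FACS against LCM with the slide as a block (0.65). The cause was not tested. With single arrays left out, LCM differences ran from −0.35 to 0.24 for Fcgr1, from −2.19 to −0.4 for Fcgrt and from −0.63 to 1.62 for Fcgr4, FACS differences from −1.81 to 1.47 for Fcgr4 and from −1.91 to 0.04 for Fcer1g, and interactions from −1.01 to 0.24 for Fcgr3 and from −2.14 to 1.14 for Fcgr4. Where 1 array remained in a FACS group, it was assumed to vary like the other groups.

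With the replicate block, 0 of 6 genes were called in LCM, in FACS and in the interaction, Fcer1g in LCM gave −1.98 (limma adjusted p = 0.438) and Fcgr2b in FACS −3.18 (limma adjusted p = 0.176). The block changed no call of these genes, and 0 of 5 LCM numbers correlated best with their own. It could not be fitted for FACS against LCM, whose numbers do not cross. The median of all genes in LCM was 0.08 with the 75th percentile, −0.01 with quantile normalization and 0.81 with a percentile taken from probes detected on every array. Relative to it, Fcer1g in LCM was at −2.06, −1.13 and −2.06. Both percentile scalings subtract a constant from each array, so their values relative to the median must be the same.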

Other observations

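Other cells that carry Fc receptors were followed by marker lists. Between the sinuses in LCM, 0 natural killer cell, neutrophil, dendritic cell or mast cell markers were called by limma, with medians of 0.91, 0.37, −0.25 and 0.6 against 0.08 for all genes, and an unadjusted p under 0.05 for 1 of 6, 1 of 7, 0 of 6 and 0 of 5. In FACS 0 were called, with medians of 0.43, −1.92, −0.16 and 1.55 against 0.74, and an unadjusted p under 0.05 for 2 of 6, 0 of 7, 1 of 7 and 2 of 4. Such a p was found for 11.7% of all genes in LCM and 31.9% in FACS. Follicular dendritic cell markers, whose cells are known to carry Fcgr2b and which share Cr2 with the B cell list, had medians of −0.2 in FACS and −0.54 in LCM, with 0 called by limma and 0 of 4 and 1 of 4 at an unadjusted p under 0.05. Itgax, which encodes CD11c, was well above background only in subcapsular FACS samples, so its level elsewhere is only a bound. Averaged over both sinuses it was called higher in FACS than in LCM samples (2.67, limma adjusted p = 0.0135). It entered that test only through the subcapsular FACS samples, so the call does not describe FACS samples of both sinuses. Also called there were the follicular dendritic cell markers Clu (−2.78, limma adjusted p = 0.000892) and Cxcl13 (−6.51, adjusted p = 0.007), the endothelial cadherin gene Cdh5 (−2.94, adjusted p = 0.0161), and the fibroblastic reticular cell markers Pdgfra (−5.59, adjusted p = 0.0143), Dcn (−3.06, adjusted p = 0.0198) and Col1a2 (−3.68, adjusted p = 0.0315), all lower in FACS. The sinus difference of Ackr1, a chemokine-binding receptor of venules, was called different between FACS and LCM (−6.92, limma adjusted p = 0.0179).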
